A study of Mus musculus with 24 samples.

Results

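The P-type ATPases are the pumps that move cations, lipids or other substrates across membranes and pass through a phosphorylated intermediate of the enzyme. This account covers 33 genes of this family in mouse kidney, found as the probe sets of the array whose only gene symbol is that of a P-type ATPase, with the probe set of highest mean kept for each gene. They are 33 of the 18782 genes (0.176%) that have a probe set with a single symbol, and they comprise 2 copper pumps, 3 calcium pumps of the endoplasmic reticulum, 2 calcium and manganese pumps of the Golgi, 4 calcium pumps of the plasma membrane, 3 sodium-potassium and proton-potassium pumps, 14 lipid flippases and 5 P5 ATPases.

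Kidney RNA came from 24 mice of 12 weeks of age, with 6 male and 6 female mice of the hypertensive strain BPH/2J and of the normotensive strain BPN/3J, and each mouse was measured on 1 Affymetrix Mouse Gene 1.0 ST array. The 2 strains were bred from a common base for high and for normal blood pressure. Neither strain carries an engineered allele, none of the mice was treated, and no blood pressure value of these animals was used here. The values are log2 expression from robust multiarray analysis (RMA), on which 1 unit is a 2-fold change, and the levels of different genes are not comparable with each other.

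In the kidney, the sodium-potassium pump drives reabsorption along the tubule, and the calcium pumps of the plasma membrane and of the internal stores keep the calcium of the cytosol low. The copper pumps load copper onto enzymes of the secretory pathway and export its excess. The flippases carry phospholipids or glycosphingolipids to the cytosolic leaflet of a membrane, most of them together with a partner protein of the *Tmem30* family. The P5 ATPases are the least known class and include a helix dislocase of the endoplasmic reticulum and polyamine transporters of lysosomes and endosomes.

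Over all probe sets, r between arrays of a group was 0.981 to 0.997. The mean of 5 proximal tubule genes was 12.61 to 12.89 over the groups and that of 4 genes of the thick ascending limb was 11.78 to 12.34, as the kidney label requires. Transcripts of other organs were present as well. The mean of 14 hepatocyte genes was 11.78 and 12.03 in BPN/3J female arrays 2 and 5 and 6.54 to 7.23 in the other 4 BPN/3J females, and it reached 8.72 in the BPN/3J males and 9.48 and 9.63 in the male and female BPH/2J. The mean of 9 adrenal cortex genes ran from 5.69 to 10.18 within the female BPN/3J group and from 5.75 to 9.81 within the female BPH/2J group. The comparisons with BPN/3J females were therefore also fitted without arrays 2 and 5, a choice made after the data were seen. Of the calls of the P-type ATPase genes between the strains in females and between the sexes in BPN/3J, 18 were kept and 9 were lost, and each lost call is named below. Of all probe sets 11.1% and 25% then passed in these comparisons. The mean of 7 adipocyte genes spanned 7.72 to 8.93 and 8.62 to 9.07 in BPN/3J and BPH/2J males. In females it spanned 8.03 to 9.02 and 8.82 to 9.65. Of these 7, 1 was lower in BPH/2J males and 3 were higher in BPH/2J females, beside 15.2% and 14.5% of all probe sets. Against males, 1 was lower in BPN/3J females and 4 were higher in BPH/2J females, beside 29.2% and 28.9%. Their part in the ATPase differences was not tested. The RNA is from whole kidney, so fewer cells of a type and less RNA per cell cannot be told apart.

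The first question of the study was which genes differ between the hypertensive and the normotensive strain in each sex. A gene is counted as changed where the Benjamini-Hochberg adjusted p from limma, taken over all 28853 probe sets, was under 0.05. In males, 7 of the 33 genes (21.2%) differed between the strains, against 15.2% of all probe sets and 16.7% of the 18782 genes taken in the same way. Of the 7, 4 were higher in BPH/2J and 3 lower, beside 7.48% and 7.70% of all probe sets. In females, 10 genes (30.3%) differed, against 14.5% of all probe sets and 15.9% of the genes. Here 7 were higher in BPH/2J and 3 lower, beside 8.01% and 6.48%. At the Bonferroni threshold that the study used, 4 members passed in males and 3 in females, where 2.56% and 2.36% of all probe sets did. The strains did not overlap in 5 members in males and 7 in females, and in 9.65% and 9.34% of all probe sets. The median log2 fold change of the 33 genes was 0.01 in males and 0.04 in females, beside 0.00 and 0.02 over all probe sets. The members that changed in the same direction in both sexes were *Atp10d*, *Atp4a*, *Atp2b4* and *Atp2b2*, which were higher in BPH/2J, and *Atp7b* and *Atp8b4*, which were lower. These 6 are 18.2% of the members, and a shared change was found for 8.09% of all probe sets and 8.74% of the genes. *Atp10b* passed in males, and *Atp2c2*, *Atp8a1*, *Atp11a* and *Atp13a4* passed in females. The other 22 genes passed in neither sex.

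**Figure D1:**
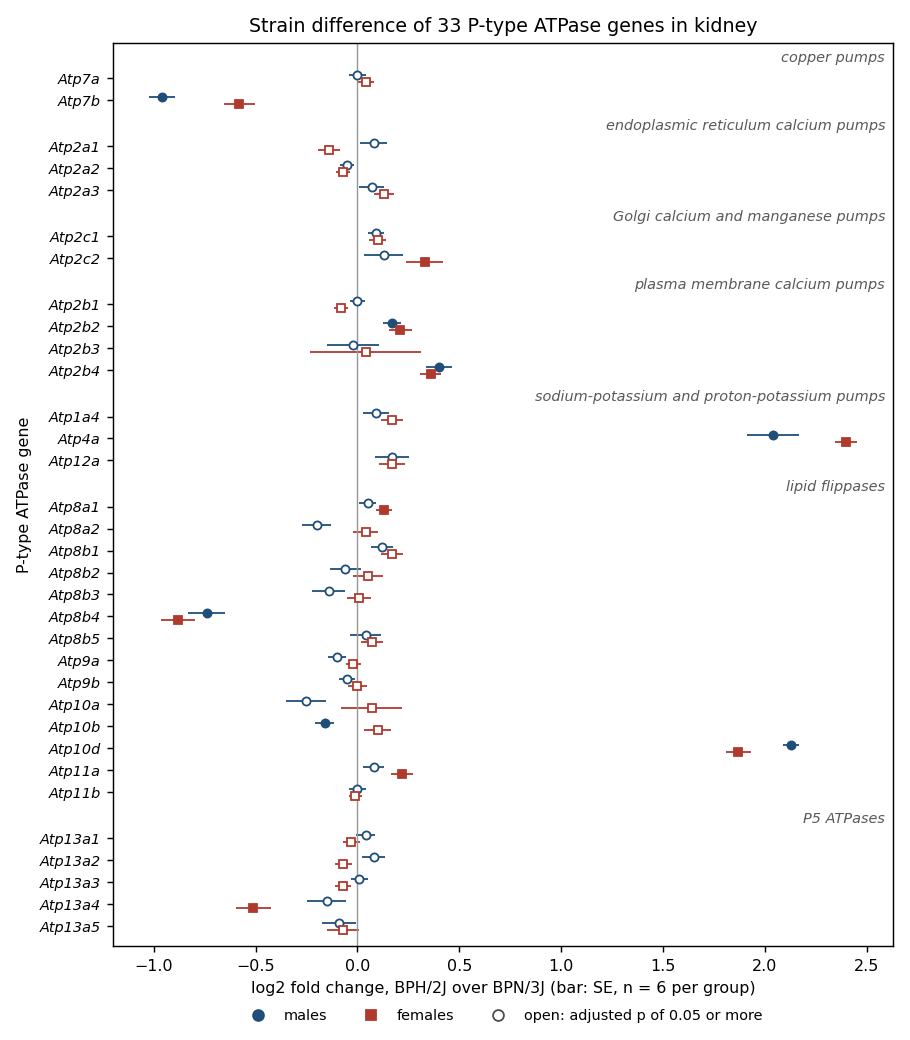
Log2 fold change of BPH/2J over BPN/3J (horizontal axis) for each of the 33 P-type ATPase genes (vertical axis, by class), with the standard error as the bar and 6 mice per group; circles are males, squares are females and open symbols have an adjusted p of 0.05 or more. *Atp10d* and *Atp4a* stand at 1.87 to 2.40 in both sexes, *Atp7b* and *Atp8b4* at −0.58 to −0.96, and most of the other genes lie close to 0.

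The same tests were applied to females against males within a strain. In BPN/3J, 17 genes (51.5%) differed between the sexes, against 29.2% of all probe sets and 33.1% of the genes. Of these, 10 were higher and 7 lower in females, beside 14.4% and 14.8% of all probe sets. In BPH/2J, 19 genes (57.6%) differed, against 28.9% of all probe sets and 32.9% of the genes, and 14 of them were higher and 5 lower in females, beside 15.6% and 13.4%. At the Bonferroni threshold 4 members passed in BPN/3J and 5 in BPH/2J, where 4.74% and 4.72% of all probe sets did. The sexes did not overlap in 9 and 15 members, and in 17.6% and 18.2% of all probe sets. The median log2 fold change of the members, females over males, was 0.10 in BPN/3J and 0.12 in BPH/2J, beside −0.02 and 0.00 over all probe sets. In all, 12 members (36.4%) changed in the same direction in both strains, against 19.6% of all probe sets and 23.3% of the genes. *Atp7a*, *Atp2a3*, *Atp2c1*, *Atp2b1*, *Atp2b4*, *Atp8a1*, *Atp8b1* and *Atp13a4* were higher in females of both strains, and *Atp2a2*, *Atp11a*, *Atp13a1* and *Atp13a3* were lower. The BPN/3J calls of *Atp7a* and *Atp2c1* were lost where arrays were shifted to a common median. In BPN/3J *Atp7b*, *Atp2b2*, *Atp8a2*, *Atp9a* and *Atp13a2* also passed, and in BPH/2J *Atp2c2*, *Atp1a4*, *Atp4a*, *Atp8b2*, *Atp10a*, *Atp10b* and *Atp10d* did.

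**Figure D2:**
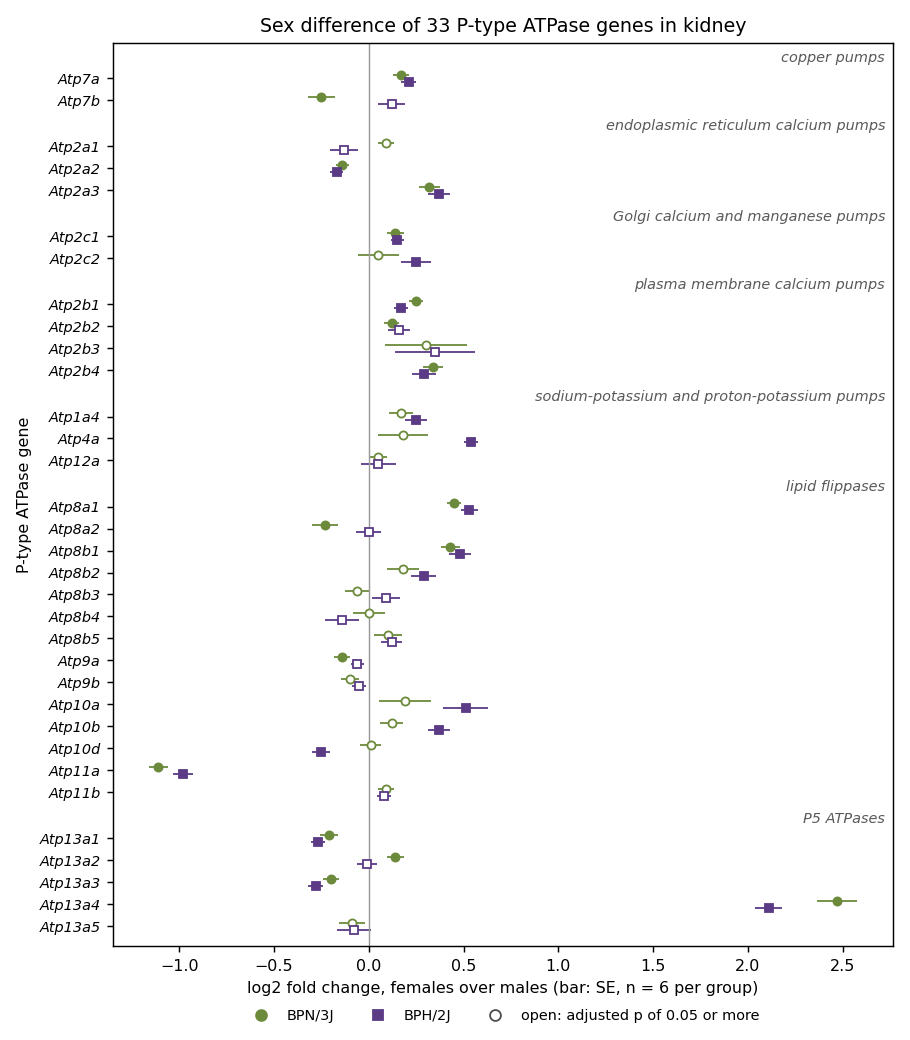
Log2 fold change of females over males (horizontal axis) for each of the 33 genes (vertical axis, by class), with the standard error as the bar and 6 mice per group; circles are BPN/3J, squares are BPH/2J and open symbols have an adjusted p of 0.05 or more. *Atp13a4* lies at 2.47 and 2.11 and *Atp11a* at −1.11 and −0.98, while all other genes are within 0.54 of 0.

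Whether a strain difference was itself different between the sexes was tested as the strain-by-sex interaction over all 24 arrays. In limma, none of the 33 genes had a Benjamini-Hochberg adjusted p under 0.05, against 1.76% of all probe sets and 2.23% of the genes, and 8 had an unadjusted p under 0.05. A call in 1 sex or 1 strain alone is therefore not shown to be particular to it. The smallest adjusted p values were those of *Atp7b*, with an interaction of 0.38 (95% interval 0.17 to 0.59, adjusted p = 0.0579), and of *Atp10d*, with −0.26 (−0.41 to −0.11, adjusted p = 0.0614), both by limma. Both of these passed with trended and robust variance, and *Atp7b* alone passed without BPN/3J female arrays 2 and 5. Over the 33 genes the strain effects of males and females had r = 0.958 (rho = 0.70), and r = 0.854 without *Atp10d*, *Atp4a*, *Atp13a4* and *Atp11a*. These 4 have the largest strain or sex differences, and *Atp7b*, *Atp8b4* and *Atp2b4* stayed in. The sign of the strain effect was the same in both sexes for 21 of the 33 genes. The arrays of the 2 sexes are separate, and genes are not independent replicates. In no strain and no sex comparison did 8 genes pass, namely *Atp2a1*, *Atp2b3*, *Atp12a*, *Atp8b3*, *Atp8b5*, *Atp9b*, *Atp11b* and *Atp13a5*.

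The copper pumps parted. *Atp7b*, the Wilson disease pump that loads copper onto ceruloplasmin and exports copper from cells, fell in BPH/2J of both sexes. Its lowest, median and highest arrays were 7.70, 7.80 and 7.92 in BPN/3J males and 6.56, 6.88 and 6.94 in BPH/2J males. In females they were 7.36, 7.49 and 7.80 in BPN/3J and 6.77, 6.99 and 7.07 in BPH/2J. Every BPH/2J array was thus below every BPN/3J array of its sex. In males the BPH/2J level was 1.95-fold lower (−0.96 on the log2 scale, standard error 0.0644, adjusted p = 1.92e-07 by limma) and in females it was 1.50-fold lower (−0.58, standard error 0.0751, adjusted p = 0.000127 by limma). *Atp7b* is strongly expressed in liver. It stood at 7.46 and 7.80 in the hepatocyte-rich BPN/3J female arrays 2 and 5 and at 7.36 to 7.63 in the other 4, and without these arrays the female difference was −0.54. Between the sexes, *Atp7b* was lower in BPN/3J females (−0.25, standard error 0.0691, adjusted p = 0.0137 by limma) and differed by 0.12 in BPH/2J (adjusted p = 0.233). *Atp7a*, the Menkes disease pump that exports copper from most other cells, differed by 0.00 and 0.04 between the strains, with all 24 arrays between 9.65 and 10.02. It was higher in females by 0.17 in BPN/3J and by 0.21 in BPH/2J. The BPN/3J call was lost where arrays were shifted to a common median.

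The genes that bring copper to the pumps and use it were taken as a list of 16, of which 14 were measured. In males 2 rose and 1 fell in BPH/2J, and in females 0 were higher and 1 was lower, so 21.4% and 7.14% passed beside the 15.2% and 14.5% of all probe sets. *Atox1*, the chaperone that hands copper to both pumps, was lower in BPH/2J in males (−0.32, adjusted p = 0.000402 by limma) and in females (−0.22, adjusted p = 0.000589). BPN/3J males spanned 10.54 to 10.78 and BPH/2J males 10.27 to 10.46, and the females 10.57 to 10.70 against 10.36 to 10.45, with no overlap in either sex. *Cp*, which encodes ceruloplasmin, was higher in BPH/2J males by 0.73 (adjusted p = 6.33e-07). In females its difference was 0.62 with an adjusted p of 0.0934, and the BPN/3J females spread from 9.71 to 11.12. *Steap2*, a metalloreductase, was higher in BPH/2J males (0.31, adjusted p = 0.000735) and differed by −0.07 in females. *Sco1*, a copper chaperone of mitochondria, differed by −0.04 and −0.12 between the strains and passed in neither sex. Without BPN/3J female arrays 2 and 5 the *Cp* difference in females was 1.01 and passed (adjusted p = 1.22e-06 by limma), and 2 genes of the list were higher and 1 lower. Between the sexes 10 of the 14 passed in BPN/3J (7 higher and 3 lower in females) and 9 in BPH/2J (6 higher and 3 lower), which is 71.4% and 64.3% beside 29.2% and 28.9% of all probe sets.

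The calcium pumps of the endoplasmic reticulum did not pass between the strains. *Atp2a2*, the SERCA2 pump of most cells, lay between 12.19 and 12.54 in all arrays and was slightly lower in females, by −0.14 in BPN/3J and −0.17 in BPH/2J, with groups that did not overlap in either strain. *Atp2a3*, the SERCA3 pump of epithelial and blood cells, was higher in females. Its lowest, median and highest arrays were 8.19, 8.29 and 8.50 in BPN/3J males and 8.51, 8.64 and 8.74 in BPN/3J females. In BPH/2J they were 8.24, 8.38 and 8.58 in males and 8.66, 8.76 and 8.90 in females. Females stood above males in every pair of arrays of a strain, by 1.25-fold in BPN/3J (0.32, standard error 0.055, adjusted p = 0.000679 by limma) and 1.29-fold in BPH/2J (0.37, standard error 0.0566, adjusted p = 0.000248 by limma). *Atp2a1*, the SERCA1 pump of fast skeletal muscle, was between 5.48 and 5.97, under the 40th percentile of mean expression (6.21), and a list of 8 skeletal muscle genes had means of 5.85 to 6.10 in all arrays.

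Of the Golgi pumps, *Atp2c1*, the widely expressed pump of calcium and manganese, was higher in females by 0.14 in BPN/3J and by 0.15 in BPH/2J, and differed by 0.09 and 0.10 between the strains, which did not pass. Its BPN/3J sex call was lost in 8 of 12 fits that left out 1 array and without female arrays 2 and 5 (adjusted p = 0.0501). *Atp2c2*, its relative of secretory epithelia, had lowest, median and highest arrays of 4.95, 5.27 and 5.53 in BPN/3J males and 5.27, 5.32 and 5.54 in BPH/2J males. In females they were 5.11, 5.24 and 5.54 in BPN/3J and 5.40, 5.57 and 5.88 in BPH/2J. All of these are under the 40th percentile, and the groups overlapped. *Atp2c2* was higher in BPH/2J females than in BPN/3J females (0.33, standard error 0.0929, adjusted p = 0.0296 by limma) and than in BPH/2J males (0.25, standard error 0.079, adjusted p = 0.0285 by limma). Each of these calls was lost in 6 of 12 fits that left out 1 array, and the first also without arrays 2 and 5 (adjusted p = 0.0653).

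Among the calcium pumps of the plasma membrane, *Atp2b4* changed with both strain and sex. Its product, PMCA4, is found in many cells including smooth muscle. The lowest, median and highest arrays were 7.87, 8.04 and 8.18 in BPN/3J males, 8.27, 8.44 and 8.65 in BPH/2J males, 8.28, 8.39 and 8.47 in BPN/3J females and 8.61, 8.76 and 8.87 in BPH/2J females. The strains did not overlap in either sex. In males *Atp2b4* was 1.32-fold higher in BPH/2J (0.40, standard error 0.063, adjusted p = 0.000529 by limma) and in females 1.29-fold higher (0.36, standard error 0.051, adjusted p = 0.000276 by limma). In females it was 1.26-fold higher than in males in BPN/3J (0.34, adjusted p = 0.000317) and 1.23-fold higher in BPH/2J (0.29, adjusted p = 0.00274). The interaction was −0.04 (95% interval −0.21 to 0.13, adjusted p = 0.902 by limma). A list of 5 vascular smooth muscle genes moved in the same way. Of its genes 4 were higher in BPH/2J males and 5 in BPH/2J females (80% and 100%, beside 15.2% and 14.5% of all probe sets). The mean of the list spanned 8.68 to 8.98 and 9.18 to 9.31 in the male BPN/3J and BPH/2J groups. In the female groups the list spanned 9.03 to 9.32 and 9.48 to 9.62. Its part in the *Atp2b4* difference was not tested.

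*Atp2b2*, the PMCA2 pump known from hair cells and the lactating mammary gland, was also higher in BPH/2J, by smaller amounts. The lowest, median and highest arrays were 6.86, 6.95 and 7.05 in BPN/3J males, 7.02, 7.12 and 7.20 in BPH/2J males, 7.04, 7.05 and 7.14 in BPN/3J females and 7.11, 7.29 and 7.49 in BPH/2J females. The strains overlapped in each sex. The strain difference was 0.17 in males (standard error 0.0442, adjusted p = 0.0187 by limma) and 0.21 in females (standard error 0.056, adjusted p = 0.0243 by limma). The female call was lost when BPH/2J female array 1 was left out (adjusted p = 0.0516) and without BPN/3J female arrays 2 and 5 (adjusted p = 0.0858). In BPN/3J *Atp2b2* was higher in females by 0.12 (adjusted p = 0.0391 by limma), a call that was lost in 10 of 12 fits that left out 1 array and without arrays 2 and 5 (adjusted p = 0.0919). *Atp2b1*, the PMCA1 pump of nearly all cells, differed by 0.00 and −0.08 between the strains and was higher in females by 0.25 in BPN/3J (adjusted p = 0.00018 by limma) and by 0.17 in BPH/2J (adjusted p = 0.00295 by limma), with no overlap of the sexes in either strain. *Atp2b3*, the PMCA3 pump of brain, was between 5.28 and 6.75 and had the widest spread within groups of all 33 genes (SD 0.415, beside a median of 0.0994). None of its differences passed. In the BPN/3J females it was 6.55, 6.29 and 6.75 in arrays 1, 2 and 4 and 5.46 to 5.77 in the other 3, and in the BPH/2J females it was 6.35 to 6.70 in arrays 1 to 4 and 5.28 and 5.64 in arrays 5 and 6. The mean of the 9 adrenal cortex genes was 9.84 to 10.18 in those higher BPN/3J arrays and 5.69 to 8.55 in the lower ones, and 9.57 to 9.81 against 6.37 and 5.75 in BPH/2J. The arrays high in *Atp2b3* were thus those high in adrenal cortex transcripts, and the part of these in its values was not tested.

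Calcium channels, buffers and sensors were taken as a list of 24 genes, of which 21 were measured. Between the strains 4 rose and 2 fell in male BPH/2J (28.6%), and 2 rose and 2 fell in female BPH/2J (19.0%), beside 15.2% and 14.5% of all probe sets. *Trpv6*, an epithelial calcium channel, was higher in BPH/2J in both sexes. Males spanned 6.06 to 6.54 (BPN/3J) and 6.49 to 6.79 (BPH/2J) and females 6.37 to 6.50 and 6.78 to 7.07, with differences of 0.34 (adjusted p = 0.0129 by limma) and 0.53 (adjusted p = 1.41e-05). *Casr*, the calcium-sensing receptor, was higher by 0.22 in males and 0.21 in females, with no overlap of the strains. *Itpr2*, a calcium release channel of the endoplasmic reticulum, was higher in BPH/2J males by 0.22 and differed by 0.04 in females. *Ryr2*, the release channel of heart muscle, fell by 0.56 in BPH/2J males (adjusted p = 6.88e-05 by limma) and differed by −0.12 in females (adjusted p = 0.204), and its interaction of 0.44 passed (adjusted p = 0.00708). Between the sexes 18 of the 21 genes (85.7%) passed in BPN/3J, 12 of them higher in females, and 16 (76.2%) passed in BPH/2J, 13 of them higher in females, beside 29.2% and 28.9% of all probe sets.

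*Atp4a*, the catalytic subunit of the gastric proton-potassium pump, which is also made in the collecting duct, stood with *Atp10d* at the top of the strain differences of the family. Its lowest, median and highest arrays were 7.30, 7.56 and 8.26 in BPN/3J males and 9.59, 9.67 and 9.74 in BPH/2J males. In females they were 7.59, 7.83 and 7.94 in BPN/3J and 10.14, 10.22 and 10.24 in BPH/2J. The strains were far apart in both sexes, and a single BPN/3J male (array 3, at 8.26) stood above the rest of its group, which reached 7.69. In males the BPH/2J level was 4.12-fold higher (2.04, standard error 0.126, adjusted p = 8.08e-08 by limma) and in females 5.29-fold higher (2.40, standard error 0.055, adjusted p = 1.55e-11 by limma). Without BPN/3J female arrays 2 and 5 the female difference was 2.35. The interaction was 0.36 (95% interval 0.06 to 0.66, adjusted p = 0.271 by limma). Within BPH/2J, *Atp4a* was 1.45-fold higher in females than in males, with no overlap (0.54, standard error 0.0365, adjusted p = 1.98e-07 by limma), and within BPN/3J the sexes differed by 0.18 (adjusted p = 0.358).

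*Atp4b*, the partner subunit of *Atp4a* in the stomach, did not pass between the strains. It differed by −0.14 between the strains in males (adjusted p = 0.113 by limma) and by −0.03 in females (adjusted p = 0.848). Of 5 parietal cell genes 4 were measured, and their mean spanned 7.07 to 7.15 and 7.05 to 7.18 in the male BPN/3J and BPH/2J groups and 7.03 to 7.26 and 7.09 to 7.34 in the female ones, with overlap of the strains in each sex. Of the 4, *Slc26a7* was higher in BPH/2J of both sexes (0.38 and 0.24) and *Aqp4* was lower in BPH/2J males (−0.18). The mean of 5 intercalated cell genes was 9.57 to 9.73 and 9.74 to 9.99 in BPN/3J and BPH/2J males, and 9.92 to 10.06 and 10.13 to 10.34 in the females. It was higher in BPH/2J of both sexes. Of the 5 genes 2 passed in males and 5 in females (40% and 100%, beside 15.2% and 14.5% of all probe sets). The median difference of these genes was 0.22 and 0.20, and their part in the *Atp4a* difference was not tested. *Atp12a*, the colonic proton-potassium pump, differed by 0.17 between the strains in each sex and did not pass (adjusted p = 0.21 and 0.109 by limma), although the female groups did not overlap. Its second probe set gave −0.20 and −0.14. *Atp1a4*, the sodium pump of sperm, was between 5.12 and 5.69 and was higher in BPH/2J females than in BPH/2J males by 0.25 (adjusted p = 0.00444).

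The 3 nearest genes with a single-symbol probe set on each side of *Atp4a* were *Haus5*, *Pmis2* and *2200002J24Rik* on one side and *Tmem147*, *Gapdhs* and *Sbsn* on the other. *Haus5*, which encodes a subunit of the augmin complex of the spindle, was higher in BPH/2J by 0.26 in males and 0.33 in females. *Tmem147* was higher by 0.17 and 0.13, and *Gapdhs* by 0.25 in males. The other differences did not pass, and no strain difference of the 6 genes was larger than the 0.33 of *Haus5*.

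Promoter sequence is shown for the genes with the largest strain or sex difference where a RefSeq entry was at hand, which was so for 23 of the 33 genes. Each run below is the 250 bases before an annotated start, on the strand of the gene, in GRCm38.p6. The motifs were searched on both strands, and matches are in capitals. The 5 were TATAAA (the TATA box, in 12.4% of 32851 promoters of this length), CCAAT (33.8%), GGGCGG (the GC box, 32.7%), AGAACA (a half-site of the androgen and glucocorticoid receptors, 16.1%) and AGGTCA (a half-site of oestrogen and other nuclear receptors, 14.0%). The window of *Atp4a* is chr7:30711959-30712208 on the plus strand and held none of the 5.
Atp4a: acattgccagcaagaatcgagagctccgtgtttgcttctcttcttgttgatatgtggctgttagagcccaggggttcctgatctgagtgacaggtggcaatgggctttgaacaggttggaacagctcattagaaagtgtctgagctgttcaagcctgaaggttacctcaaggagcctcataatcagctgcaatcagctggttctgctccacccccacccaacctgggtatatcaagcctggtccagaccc

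Among the 14 flippases, *Atp10d* differed most between the strains. It encodes a flippase of the plasma membrane that carries glucosylceramide. Its lowest, median and highest arrays were 7.56, 7.58 and 7.62 in BPN/3J males and 9.60, 9.72 and 9.80 in BPH/2J males. In females they were 7.42, 7.57 and 7.79 in BPN/3J and 9.35, 9.48 and 9.58 in BPH/2J. Every BPH/2J array was above every BPN/3J array by more than 1 unit. In males the BPH/2J level was 4.39-fold higher (2.13, standard error 0.038, adjusted p = 5.72e-13 by limma) and in females 3.66-fold higher (1.87, standard error 0.0613, adjusted p = 1.26e-10 by limma). Without BPN/3J female arrays 2 and 5 the female difference was 1.91. *Atp10d* was lower in females than in males in BPH/2J, with no overlap (−0.25, standard error 0.0471, adjusted p = 0.00138 by limma), and the sexes differed by 0.01 in BPN/3J (adjusted p = 0.882).

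On the chromosome, the 3 nearest genes with a single-symbol probe set on one side of *Atp10d* were *Gabra4*, *Gabrb1* and *Commd8*, and on the other side *Corin*, *Nfxl1* and *Zar1*. *Gabra4* and *Gabrb1*, which encode subunits of the GABA-A receptor, were higher in BPH/2J by 0.40 and 0.37 in males and by 0.39 and 0.32 in females. *Corin*, which encodes the protease that activates atrial natriuretic peptide, moved the other way, by −0.51 in males (adjusted p = 0.000639 by limma) and −0.39 in females (adjusted p = 8.47e-05 by limma). *Commd8*, *Nfxl1* and *Zar1* did not pass between the strains. None of the 6 neighbours differed by as much as *Atp10d*.

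**Figure D3:**
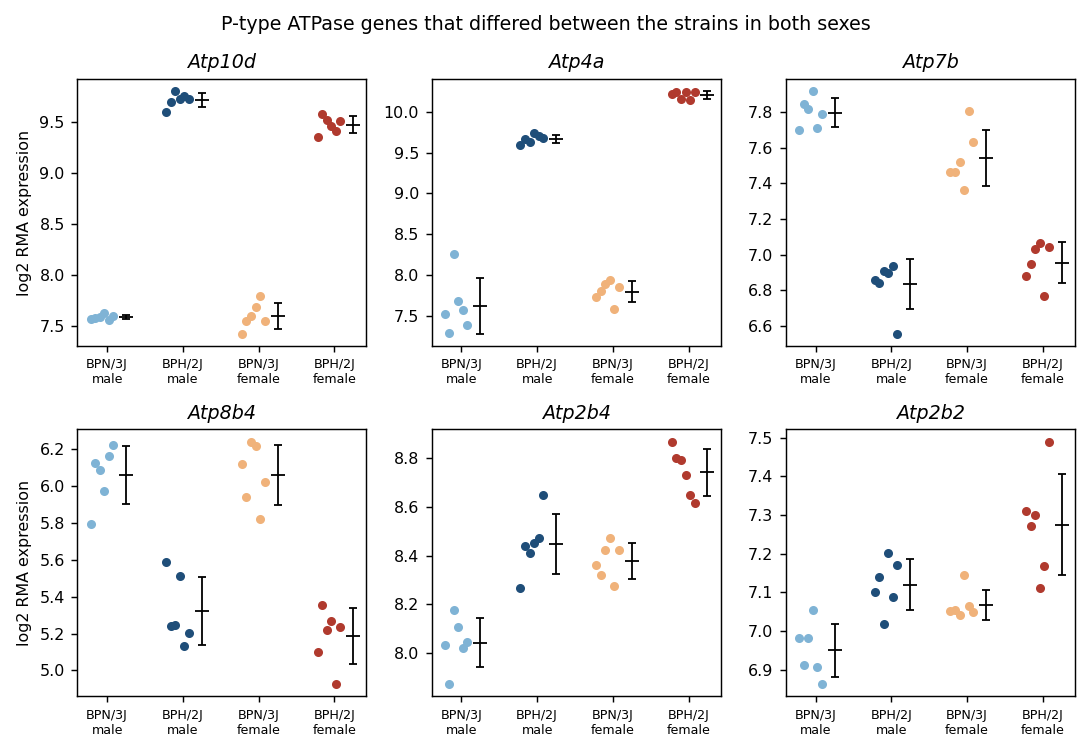
Log2 RMA expression (vertical axis) in each of the 24 arrays for the 6 genes that changed with strain in the same direction in both sexes, by group along the horizontal axis; points are single mice and bars give the mean and SD of the 6 mice, on an axis of its own for each gene. The BPH/2J arrays of *Atp10d* and *Atp4a* all lie above 9.3 and the BPN/3J arrays below 8.3, while the strains overlap in *Atp2b2*.

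*Atp8b4*, a less known flippase of the same class as *Atp8b1*, was lower in BPH/2J of both sexes. The lowest, median and highest arrays were 5.79, 6.11 and 6.22 in BPN/3J males and 5.14, 5.24 and 5.59 in BPH/2J males. In females they were 5.82, 6.07 and 6.24 in BPN/3J and 4.93, 5.23 and 5.36 in BPH/2J. The strains did not overlap in either sex, and the overall level is under the 40th percentile. The difference was −0.74 in males (1.67-fold lower, standard error 0.0905, adjusted p = 6.47e-05 by limma) and −0.88 in females (1.84-fold lower, standard error 0.085, adjusted p = 1.11e-05 by limma). The sexes differed by 0.00 in BPN/3J and −0.14 in BPH/2J, and neither passed.

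*Atp11a*, a flippase of phosphatidylserine and phosphatidylethanolamine at the plasma membrane, was lower in females. Its lowest, median and highest arrays were 12.75, 12.81 and 12.87 in BPN/3J males and 11.62, 11.68 and 11.92 in BPN/3J females. In BPH/2J they were 12.72, 12.89 and 13.05 in males and 11.86, 11.92 and 12.02 in females. All males were above all females. The level was 2.15-fold lower in females of BPN/3J (−1.11, standard error 0.0509, adjusted p = 4.37e-09 by limma) and 1.97-fold lower in females of BPH/2J (−0.98, standard error 0.0545, adjusted p = 2.80e-08 by limma). Between the strains it differed by 0.08 in males and was higher in BPH/2J by 0.22 in females (adjusted p = 0.0144 by limma), a call that was lost without arrays 2 and 5 (0.21, adjusted p = 0.0591). The promoter window of *Atp11a*, at chr8:12756766-12757015 on the plus strand, held 4 GC boxes, which began 183, 118, 76 and 32 bases before the start, and no other motif of the 5.
Atp11a: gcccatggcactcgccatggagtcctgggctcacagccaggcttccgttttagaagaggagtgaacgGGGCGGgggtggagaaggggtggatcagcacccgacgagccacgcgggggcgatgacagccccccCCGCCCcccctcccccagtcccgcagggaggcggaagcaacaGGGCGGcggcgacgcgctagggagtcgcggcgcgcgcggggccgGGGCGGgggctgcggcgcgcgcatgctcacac

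The flippases *Atp8a1* and *Atp8b1* were higher in females of both strains. *Atp8a1*, a flippase of phosphatidylserine, had lowest, median and highest arrays of 8.91, 8.98 and 9.05 in BPN/3J males and 9.37, 9.43 and 9.52 in BPN/3J females. In BPH/2J they were 8.94, 9.04 and 9.13 in males and 9.48, 9.56 and 9.65 in females. The sexes did not overlap, and the differences were 0.45 (1.36-fold, standard error 0.0388, adjusted p = 1.83e-06 by limma) and 0.53 (1.44-fold, standard error 0.0433, adjusted p = 1.11e-06 by limma). Its strain difference in females, 0.13, had an adjusted p of 0.0413 and was lost in 10 of 12 fits that left out 1 array and without arrays 2 and 5 (0.10, adjusted p = 0.189).

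*Atp8b1*, the flippase of the canalicular membrane of liver cells whose loss causes cholestasis, had lowest, median and highest arrays of 8.37, 8.45 and 8.54 in BPN/3J males and 8.77, 8.84 and 9.04 in BPN/3J females. In BPH/2J they were 8.33, 8.58 and 8.64 in males and 8.97, 9.00 and 9.18 in females. Females were above males in each strain without overlap, by 0.43 (standard error 0.0509, adjusted p = 2.82e-05 by limma) and 0.48 (standard error 0.0569, adjusted p = 2.98e-05 by limma). Without the hepatocyte-rich arrays 2 and 5 the BPN/3J difference was 0.37. Between the strains *Atp8b1* differed by 0.12 in males and 0.17 in females, which did not pass (adjusted p = 0.177 and 0.0606 by limma). The female strain difference passed without arrays 2 and 5 and with all 24 arrays in 1 fit. It also passed with trended and robust variance, with quantile normalization and with dim probe sets left out.

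The class V flippases *Atp10a* and *Atp10b* differed between the sexes in BPH/2J. *Atp10a*, a flippase of phosphatidylcholine, had lowest, median and highest arrays of 6.47, 6.63 and 7.01 in BPH/2J males and 6.82, 7.28 and 7.41 in BPH/2J females, and 6.76, 6.88 and 7.21 in BPN/3J males and 6.68, 7.12 and 7.45 in BPN/3J females. The groups overlapped in each strain. Its sex difference was 0.51 in BPH/2J (standard error 0.117, adjusted p = 0.00492 by limma) and 0.19 in BPN/3J (adjusted p = 0.335). The adrenal cortex genes moved with *Atp10a*. In BPH/2J their mean spanned 5.8 to 8.51 over the males and 5.75 to 9.81 over the females. The median sex difference of the 9 genes was 2.00 in BPH/2J and 1.49 in BPN/3J. In BPH/2J 2 of them were called higher in females (22.2%, beside 28.9% of all probe sets), and in BPN/3J none was called. BPH/2J female arrays 5 and 6, the lowest in *Atp10a* (6.82 and 6.92), had adrenal means of 6.37 and 5.75, while arrays 1 to 4 had 7.24 to 7.41 and 9.57 to 9.81. BPH/2J male array 3 was the highest of its group in both, at 7.01 and 8.51. The part of the adrenal transcripts in the *Atp10a* difference was not tested. *Atp10b*, a flippase of lysosomal glucosylceramide, had lowest, median and highest arrays of 7.83, 7.90 and 8.01 in BPH/2J males and 8.08, 8.30 and 8.43 in BPH/2J females, and 7.93, 8.08 and 8.14 in BPN/3J males and 7.98, 8.21 and 8.31 in BPN/3J females. The BPH/2J sexes did not overlap (0.37, standard error 0.056, adjusted p = 0.000206 by limma), and in BPN/3J the difference was 0.12 (adjusted p = 0.158). *Atp10b* was also lower in BPH/2J males than in BPN/3J males (−0.16, adjusted p = 0.0346), a call that was lost in 8 of 12 fits that left out 1 array.

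The other flippases differed little. *Atp8b2*, a phosphatidylcholine flippase, was higher in BPH/2J females than in BPH/2J males by 0.29 (adjusted p = 0.00461). *Atp8a2*, known from neurons, was lower in BPN/3J females than in BPN/3J males by −0.23, and *Atp9a*, an endosomal member that works without a *Tmem30* partner, by −0.14. Both of these calls were lost without arrays 2 and 5 (adjusted p = 0.0725 and 0.124 by limma). Neither the testis genes *Atp8b3* and *Atp8b5*, at 5.52 to 6.19, nor *Atp9b*, at 8.64 to 8.93, nor *Atp11b*, at 10.54 to 10.75, passed in any comparison.

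Partners of the flippases and the scramblases, which move lipids without ATP, were taken as a list of 18, of which 16 were measured. Between the strains 2 rose and 1 fell in male BPH/2J (18.8%), and 1 was higher and 1 lower in females (12.5%), beside 15.2% and 14.5% of all probe sets. *Plscr1* and *Plscr2*, of the phospholipid scramblase family, were higher in BPH/2J males by 0.29 (adjusted p = 0.00077 by limma) and 0.15 (adjusted p = 0.0265) and differed by 0.12 and 0.04 in females. *Abca1*, the exporter of cholesterol and phospholipid, was lower in BPH/2J females (−0.24, adjusted p = 0.0194) and differed by −0.17 in males. *Tmem30b*, a partner subunit, was higher in BPH/2J females by 0.20 (adjusted p = 0.0297) and differed by −0.01 in males. Both of these female calls were lost without BPN/3J arrays 2 and 5 (adjusted p = 0.092 for *Abca1* and 0.143 for *Tmem30b* by limma). *Tmem30b* was higher in females than in males by 0.28 in BPN/3J and by 0.48 in BPH/2J. In all, 8 of the 16 passed between the sexes in BPN/3J (4 higher and 4 lower in females) and 7 in BPH/2J (3 higher and 4 lower), or 50% and 43.8% beside 29.2% and 28.9% of all probe sets.

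*Atp13a4*, a P5 ATPase of uncertain substrate, gave the largest sex difference of the 33 genes in both strains. Its lowest, median and highest arrays were 5.09, 5.24 and 5.68 in BPN/3J males and 7.46, 7.84 and 7.90 in BPN/3J females. In BPH/2J they were 5.04, 5.15 and 5.31 in males and 7.06, 7.30 and 7.46 in females. Males stayed under the 40th percentile of all probe sets (6.21) and females above it. No detection call was used, so how far the male values lie above background is not known here, and the folds below are those of the measured values. The level was 5.53-fold higher in females of BPN/3J (2.47, standard error 0.107, adjusted p = 2.50e-09 by limma) and 4.31-fold higher in females of BPH/2J (2.11, standard error 0.071, adjusted p = 1.74e-10 by limma). In females it was lower in BPH/2J than in BPN/3J, with no overlap (−0.51, 1.43-fold lower, standard error 0.0839, adjusted p = 0.000931 by limma), and in males the strains differed by −0.15 (adjusted p = 0.358). The interaction was −0.36 (95% interval −0.63 to −0.08, adjusted p = 0.219 by limma). Without arrays 2 and 5 the BPN/3J sex difference was 2.55 and the female strain difference −0.60. *Atp13a5*, its close relative, was between 4.82 and 5.46 in all arrays and passed in no comparison.

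RefSeq gives *Atp13a4* 2 starts. The window before the first, at chr16:29541484-29541733 on the minus strand, held none of the 5 motifs. That before the second, at chr16:29544865-29545114 on the minus strand, held 2 copies of TGACCT (the other strand of AGGTCA), which began 209 and 189 bases before the start, a CCAAT box at 148 and a GC box at 130. The matches did not overlap.
Atp13a4 first start: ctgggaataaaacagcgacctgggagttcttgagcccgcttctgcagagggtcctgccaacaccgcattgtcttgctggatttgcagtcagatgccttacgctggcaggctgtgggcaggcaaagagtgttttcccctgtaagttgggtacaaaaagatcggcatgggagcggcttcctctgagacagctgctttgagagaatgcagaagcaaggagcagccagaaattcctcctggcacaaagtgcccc
Atp13a4 second start: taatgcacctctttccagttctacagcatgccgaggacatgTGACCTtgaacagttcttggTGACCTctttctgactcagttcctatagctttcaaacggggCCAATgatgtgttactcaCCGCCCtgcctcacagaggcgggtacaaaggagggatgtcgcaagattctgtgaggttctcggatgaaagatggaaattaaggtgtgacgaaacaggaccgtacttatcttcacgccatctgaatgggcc

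**Figure D4:**
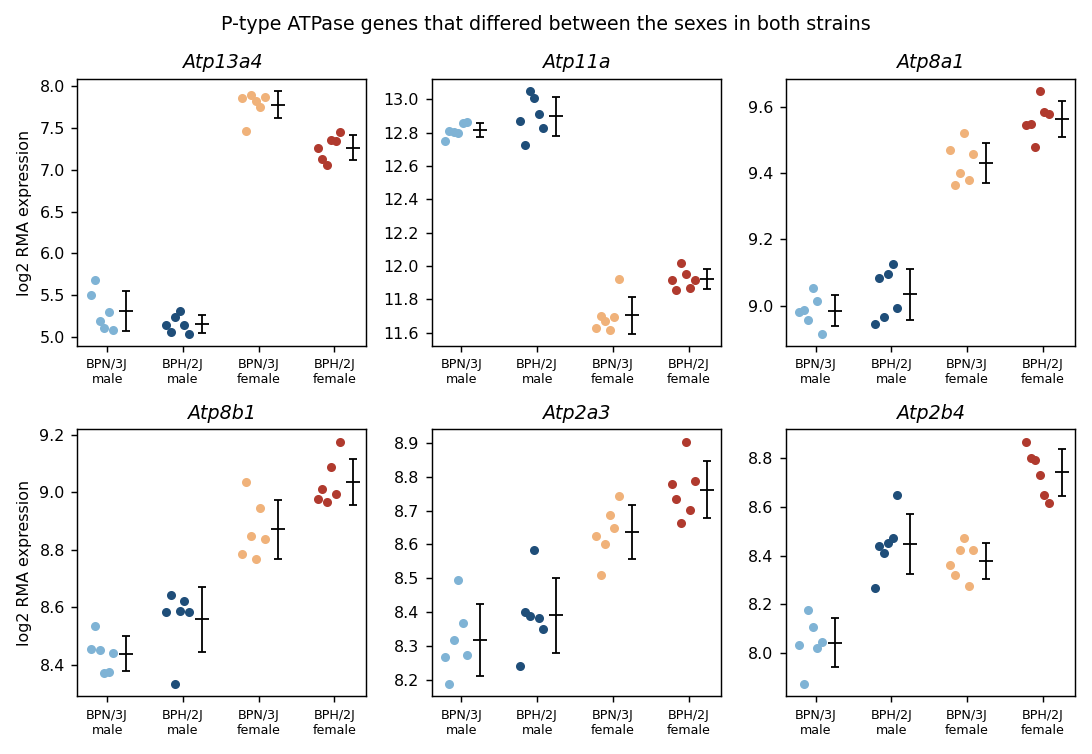
Log2 RMA expression (vertical axis) in each of the 24 arrays for 6 genes that changed with sex in the same direction in both strains, by group along the horizontal axis; points are single mice and bars give the mean and SD of the 6 mice, on an axis of its own for each gene. Males and females of a strain do not overlap in *Atp13a4*, *Atp11a*, *Atp8a1*, *Atp8b1* and *Atp2a3*, and the BPH/2J sexes overlap in *Atp2b4*.

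The other P5 genes differed by small amounts. *Atp13a1*, the helix dislocase of the endoplasmic reticulum, was lower in females by −0.21 in BPN/3J (adjusted p = 0.00546 by limma) and −0.27 in BPH/2J (adjusted p = 9.28e-05 by limma). *Atp13a3*, a polyamine transporter of endosomes, was lower in females by −0.20 (adjusted p = 0.00342) and −0.28 (adjusted p = 9.19e-05), with no overlap in either strain. Its second probe set gave −0.34 (adjusted p = 0.000304) and −0.12 (adjusted p = 0.149). *Atp13a2*, the polyamine exporter of lysosomes, was higher in BPN/3J females by 0.14 (adjusted p = 0.0263), a call lost without arrays 2 and 5 (0.13, adjusted p = 0.104), and differed by −0.01 in BPH/2J. No P5 gene passed between the strains in males.

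Subunits and regulators of the cation pumps were taken as a list of 22, of which 15 were measured. In males 3 were higher in BPH/2J and 0 lower (20.0%), and in females 1 was higher and 0 lower (6.67%), beside 15.2% and 14.5% of all probe sets. *Fxyd5*, a regulator of the sodium pump, was the one that passed in both sexes (0.17 and 0.24, adjusted p = 0.0121 by limma in each). *Atp1b3*, a beta subunit, was higher in BPH/2J males by 0.19 (adjusted p = 0.00462) and differed by 0.14 in females. *Pln*, which encodes phospholamban, the inhibitor of SERCA2, was higher in BPH/2J males by 0.32 (adjusted p = 0.0306) and differed by 0.28 in females (adjusted p = 0.125). *Atp1b2*, another beta subunit, did not pass between the strains and was higher in females by 0.32 in BPN/3J and 0.37 in BPH/2J. Between the sexes 6 of the 15 passed in each strain, 5 higher and 1 lower in females of BPN/3J and 6 higher in females of BPH/2J. This is 40% of the list, beside 29.2% and 28.9% of all probe sets.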

How the data were processed

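Kidney RNA of 24 mice in 4 groups was measured on 1 array each, and the number of arrays limits the precision. Normalisation by RMA was done by the authors, and the log2 expression values they deposited were used unaltered. No RMA version was given in the sources at hand. The values are summaries of probe sets, so single probes could not be examined. Groups and replicate numbers came from the labels, which do not say that the numbers pair the mice.

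Gene symbols came from the annotation of the array, in which 21159 of 28853 probe sets have exactly 1 symbol. Where a gene had several such probe sets, as *Atp12a* and *Atp13a3* did, the one with the highest mean was used. The members, the related lists and the marker lists were chosen with earlier results of these data known. All 33 members are named, and full values are given for those with an adjusted p under 0.05 and an absolute log2 fold change of at least 0.3. Related lists are described by counts and by the up to 4 genes with the smallest strain p.

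Comparisons were fitted by limma 3.58.1 (lmFit and eBayes, R 4.3.3) over all 28853 probe sets, two-sided, on 12 arrays within a sex or a strain and on 24 arrays for the interaction. A gene was called at a Benjamini-Hochberg adjusted p under 0.05. Scripts were tested on simulated data. Alternatives were the Bonferroni threshold of the methods, the methods' t-test with unequal variances, a fit to all 24 arrays, trended and robust variance, arrays shifted to a common median, quantile normalization, dim probe sets (under the 40th percentile, 6.21) left out, the mean of a gene's probe sets, a block for the replicate number, and single arrays left out one at a time. Leaving out BPN/3J female arrays 2 and 5 was added after the data were seen. Neighbours and promoters came from RefSeq tables of GRCm38.p6. Figures were drawn with matplotlib 3.10.9 in Python 3.11.15.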

Additional observations from a re-analysis of the deposited data

Results flagged for a closer look

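In groups of 6 arrays, an array was picked out where its gap to the nearest other array was past the critical value of Dixon's test at the 95% level. This held in 13 of the 132 groups tested, and about 1 in 20 would do so by chance. In BPH/2J males these were array 6 for *Atp7b* (6.56, the others 6.84 to 6.94), array 2 for *Atp2a1* (5.51, the others 5.83 to 5.97), array 2 for *Atp12a* (7.02, the others 7.47 to 7.54), array 3 for *Atp8b1* (8.33, the others 8.58 to 8.64) and array 2 for *Atp13a3* (11.23, the others 11.33 to 11.37). In BPN/3J females they were array 4 for *Atp2b2* (7.14, the others 7.04 to 7.06), array 6 for *Atp12a* (7.15, the others 7.30 to 7.37), array 6 for *Atp11a* (11.92, the others 11.62 to 11.70) and array 2 for *Atp13a4* (7.46, the others 7.75 to 7.90). In BPH/2J females they were array 5 for *Atp2a2* (12.19, the others 12.28 to 12.32), array 6 for *Atp2c1* (11.24, the others 11.30 to 11.33), array 5 for *Atp12a* (7.76, the others 7.38 to 7.50) and array 6 for *Atp13a5* (4.82, the others 5.12 to 5.29). Array 2 of the BPH/2J males appears for 3 genes and array 2 of the BPN/3J females is one of the hepatocyte-rich arrays.

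The strain difference itself differed between the sexes for 2 genes of the related lists. They were 1 of 21 in the calcium list and 1 of 14 in the copper list. In the lists of 15 pump subunits and 16 flippase partners 0 passed. Of all probe sets 1.76% passed, and of the genes 2.23%. The interaction was 0.44 for *Ryr2* (adjusted p = 0.00708 by limma), which was 6.56 to 6.84 in BPN/3J males and 5.82 to 6.33 in the other 3 groups. For *Steap2* it was −0.38 (adjusted p = 0.000626 by limma), with 10.86 to 11.16 in BPN/3J males and 11.30 to 11.71 in the other groups.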

How the results depend on the processing

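No difference of a called gene turned its direction under any setting run, and the cause of the changes in counts was not tested. With arrays shifted to a common median, 6 genes passed between the strains in males and 9 in females. Between the sexes 13 passed in BPN/3J and 19 in BPH/2J. The BPN/3J sex calls lost were those of *Atp7a*, *Atp2c1*, *Atp2b2* and *Atp13a2*, all higher in females. Array medians were 6.89 to 6.93 in BPN/3J males and 6.92 to 6.97 in BPN/3J females. At the Bonferroni threshold of the methods 4 of the 33 genes passed between the strains in males, 3 in females, 4 between the sexes in BPN/3J and 5 in BPH/2J, against 2.56%, 2.36%, 4.74% and 4.72% of all probe sets. The interaction, with 0 genes, gave 2 with trended and robust variance, 2 with dim probe sets left out, 2 with the mean of a gene's probe sets, 1 with quantile normalization and 1 without BPN/3J female arrays 2 and 5. These were *Atp7b* and *Atp10d* where there were 2, and *Atp7b* where there was 1. With each array left out in turn the counts were 6 to 9 in males, 8 to 11 in females, 13 to 18 in BPN/3J, 18 to 19 in BPH/2J and 0 to 1 for the interaction. Without BPN/3J female arrays 2 and 5 they were 7 in females and 13 in BPN/3J. Of these, 6 and 12 were calls of the main fit, and *Atp8b1* in females and *Atp8b2* in BPN/3J were gained. *Atp2c2*, *Atp1a4*, *Atp8a2* and *Atp8b4* were not tested where dim probe sets were left out. With the replicate number as a block the counts were 6, 8, 15 and 18, and 1 for the interaction (*Atp10d*). The deviations of arrays with the same number correlated at −0.567 to 0.444. An array correlated best with its own number in 0 of 6 pairs in males, 4 in females, 2 in BPN/3J and 0 in BPH/2J. These values do not show that the numbers pair the mice, and they cannot exclude it.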

Other observations

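The median SD within groups was 0.0994 for the 33 genes and 0.122 over all probe sets, and the median range of the 4 group means was 0.29 and 0.20. *Atp2b3* (SD 0.415) and *Atp10a* (0.243) had the widest spread within groups, and *Atp2a2* (0.0401) the narrowest. In the females of both strains the arrays high in *Atp2b3* were also those with the highest mean of the adrenal cortex genes, whose part in this spread was not tested.

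Marker lists of other kidney cells moved with the groups as well. Of all probe sets 15.2% and 14.5% passed between the strains in males and females. Between the sexes 29.2% and 28.9% passed in BPN/3J and BPH/2J. All 4 podocyte genes measured were higher in females of both strains, as were all 4 genes of the thick ascending limb, and 3 podocyte genes in males and 4 in females were higher in BPH/2J. In the distal convoluted tubule list 2 of 4 genes were lower and 1 higher in BPH/2J males, and 3 were lower in BPH/2J females. Of 4 principal cell genes 2 in males and 3 in females were higher in BPH/2J. Of 5 endothelial genes 1 was higher in BPH/2J of each sex, and 4 were higher in females of each strain. Of 5 proximal tubule genes 2 were higher and 2 lower in BPN/3J females, and 2 were higher and 3 lower in BPH/2J females. Their part in the differences of the ATPase genes was not tested.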
